A study of Mus musculus with 3 samples.

Results

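The cytochrome P450, UDP-glucuronosyltransferase and carboxylesterase genes of the mouse small intestine were examined in single cells. Members were taken by symbol alone, as rows named Cyp followed by a digit (without Cyp51) or starting with Ugt1a, Ugt2a, Ugt2b, Ces1 or Ces2, which gave 67 of the 13891 genes in the table. They comprised 28 P450s of families 1 to 3, 10 of family 4, 8 other P450s, 3 Ugt1a, 6 Ugt2, 6 Ces1 and 6 Ces2 genes. The study compared small intestines of male ICR mice, 3 weeks old at the start, that got water alone (AOS 0), the alkylating drug busulfan at 40 mg/kg and then water (B + A 0), or busulfan and then alginate oligosaccharides (AOS, short sugar chains from seaweed) at 10 mg/kg (B + A 10). Water and AOS were given daily by gavage for 2 weeks. The question was whether AOS offsets the intestinal damage that busulfan causes. Each group was 1 droplet library of 3' ends in which the cells of 6 mice were combined, so no animal can be told from another and no comparison between treatments had a replicate. A spread over the 3 libraries is therefore a spread over 3 treatments as well. Where 3 values stand together, they are those of the control, the busulfan and the busulfan plus AOS library, in that order.

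These genes form much of the first chemical barrier that a meal or an oral drug meets. Carboxylesterases split esters, P450s oxidise drugs, steroids, fatty acids and sterols with electrons passed on by P450 reductase and cytochrome b5, and UDP-glucuronosyltransferases attach glucuronic acid so that the product can be exported. In the intestine the system is best known from absorptive enterocytes, which are born in the crypt, mature as they move up the villus and differ from duodenum to ileum, and several members are induced by ligand-sensing receptors such as AHR, PXR (Nr1i2) and CAR (Nr1i3).

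The 3 libraries held 4106, 3195 and 5352 cells with median UMI counts of 7371, 6407 and 3505. Cells were clustered without the members and named "X-like" from marker genes, which gave 3252 crypt, 1014 early, 1323 mid villus, 342 duodenal, 849 proximal, 1147 mature and 803 ileal enterocyte, 2428 goblet, 432 Paneth, 154 enteroendocrine, 31 tuft and 377 T cell-like cells, while 501 cells stayed unnamed. The names are not exclusive. Early markers summed to 677, 698 and 606 UMIs per 10000 in early cells but 1835, 1787 and 1424 in ileal cells. Mid villus markers summed to 205, 215 and 233 in mid villus cells but 242, 264 and 303 in mature cells. The crypt, duodenal, proximal, mature, ileal and goblet lists were highest in their own class. A cluster of 824 crypt-like cells scored highest as early enterocyte. Each cell's own marker score kept 67.2% of cells in their class. Libraries shared 17 to 34 cell barcodes a pair, at most 0.970% of the smaller library. The sample source names of the B + A 0 and B + A 10 libraries go against their titles and treatments, so each was taken by its title, its treatment and the prefix of its cells. T cell markers were detected in every other class: their summed level over the crypt, enterocyte, goblet and Paneth-like classes was 0.610 to 1.76 UMIs per 10000 in the control library, 2.44 to 4.66 in the busulfan library and 2.93 to 5.28 with AOS, against 193, 128 and 167 in T cell-like cells themselves (8 of 8 markers). Its part in the differences between libraries below was not tested.

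Levels are given as UMIs per 10000 UMIs, ± the SD over the 3 libraries, and need no scaling by length because 3' ends were counted. T cell-like cells, which should lack most members, carried 12.8 ± 0.576 member UMIs per 10000, against 30.1 ± 1.37 in all enterocyte-like cells. For the 22 members at 0.2 or more in enterocytes, the T cell-like level was a median of 0.409 of the enterocyte level (range 0.191 to 0.624). The median depth was 4378 UMIs in T cell-like cells and 3736 to 6244 in the enterocyte classes. T cell-like cells were also a mixed class: goblet markers summed to 390, 713 and 543 UMIs per 10000 there against 26.2, 61.3 and 51.4 in crypt cells, proximal enterocyte markers to 72.9, 71.97 and 84.6 against 9.92, 14.1 and 15.0, and mature enterocyte markers to 14.6, 14.7 and 15.3 against 1.43, 3.24 and 3.90. A level at or below the T cell-like one is therefore not read as expression of that class, since free RNA and expression cannot be told apart there, and is not shown to be background either.

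By position (GENCODE vM21, GRCm38), 66 of the 67 members were placed, most of them in tandem families: the 6 Ces1 genes at chr8:93056728-93337308, the 6 Ces2 genes at chr8:104734003-105021178, the 6 Ugt2 genes at chr5:86889767-87424203, 7 family 4 genes at chr17:32452723-32947402 and 8 Cyp2c genes at chr19:39007019-40187333. Reads of near-identical copies cannot always be placed in a single gene. Of the 31-base words in the last 500 bases, Cyp2c40 shared 79.0% with other genes, Cyp2c68 68.1%, Cyp2c67 65.7%, Ces2c 44.7% (mostly with the pseudogene Ces2d-ps), Ces1b 39.6% (with Ces1c), Cyp3a25 36.6% and Cyp2d26 35.1%. Levels of these members are uncertain to that extent.

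Promoters of a few members are shown first. They are the 200 bases before the RefSeq start (GRCm38.p6), 5' to 3' on the gene's strand, and 54 of the 67 members had an entry. The first 4 belong to members that hold the word marked in them. Most members with the largest differences below are not shown. Capitals mark CAAAGTCCA, the core that the hepatocyte nuclear factor HNF4 is known to bind, in the first 4.
Cyp2c40, chr19:39812815-39813014, minus strand: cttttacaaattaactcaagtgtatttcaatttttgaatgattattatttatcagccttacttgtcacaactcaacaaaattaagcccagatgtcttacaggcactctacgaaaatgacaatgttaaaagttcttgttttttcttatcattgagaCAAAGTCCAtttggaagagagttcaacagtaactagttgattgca
Cyp2c65, chr19:39060806-39061005, plus strand: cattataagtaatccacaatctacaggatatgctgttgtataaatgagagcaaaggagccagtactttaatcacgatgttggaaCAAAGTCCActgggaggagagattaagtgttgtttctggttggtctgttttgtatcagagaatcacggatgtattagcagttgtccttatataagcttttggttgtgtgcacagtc
Cyp2c68, chr19:39741102-39741301, minus strand: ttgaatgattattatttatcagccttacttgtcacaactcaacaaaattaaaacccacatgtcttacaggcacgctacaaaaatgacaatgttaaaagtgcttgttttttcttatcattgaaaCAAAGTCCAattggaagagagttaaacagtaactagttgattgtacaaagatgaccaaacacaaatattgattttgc
Cyp3a11, chr5:145879855-145880054, minus strand: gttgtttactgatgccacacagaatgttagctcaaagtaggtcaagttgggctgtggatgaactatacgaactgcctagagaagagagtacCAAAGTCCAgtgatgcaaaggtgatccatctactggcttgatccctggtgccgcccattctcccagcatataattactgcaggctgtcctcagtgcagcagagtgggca
The words lie 45, 116, 77 and 109 bases before the start. Searched on both strands of the 250 bases before the start, CAAAGTCCA was found in 7 of 54 member promoters (13.0%; the other 3 were Cyp2c67, Cyp2c69 and Cyp2c70) and in 0.381% of all 27025 promoters. All holders but Cyp3a11 are Cyp2c genes of the same tandem family, so these are not independent matches. The Cyp2c40 and Cyp2c68 sequences matched at 68.2% of aligned bases, while Cyp2c65 and Cyp3a11 matched each other and both of these at 49.6% to 54.8%.

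The member with the widest gap between libraries, Cyp1a1, comes next, with GCGTG in capitals (54 bases before the start). AHR response elements contain this word, and whether this copy belongs to such an element was not tested. The goblet pair Ces1b and Ces1c follows, with TTTATG, a word of the kind that CDX factors bind, in capitals (85 and 95 bases before).
Cyp1a1, chr9:57697413-57697612, plus strand: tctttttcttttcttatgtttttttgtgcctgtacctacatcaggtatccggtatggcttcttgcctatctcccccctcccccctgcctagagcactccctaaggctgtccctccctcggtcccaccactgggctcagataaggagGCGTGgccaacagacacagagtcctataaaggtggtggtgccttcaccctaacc
Ces1b, chr8:93079941-93080140, minus strand: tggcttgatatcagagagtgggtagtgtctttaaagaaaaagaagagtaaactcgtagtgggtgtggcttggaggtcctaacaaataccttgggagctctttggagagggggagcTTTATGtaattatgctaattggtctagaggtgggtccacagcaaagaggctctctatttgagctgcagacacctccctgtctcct
Ces1c, chr8:93131284-93131483, minus strand: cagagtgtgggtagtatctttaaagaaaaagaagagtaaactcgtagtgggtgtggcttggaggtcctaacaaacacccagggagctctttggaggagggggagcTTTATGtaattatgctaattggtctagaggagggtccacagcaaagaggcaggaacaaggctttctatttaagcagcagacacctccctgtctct
GCGTG stood in 20.4% of member promoters and 28.2% of all, and TTTATG in 16.7% and 11.1%, both searched on both strands. Ces1b and Ces1c matched at 84.4% of aligned bases. RefSeq lists 2 starts for Ces1b, of which the first was used. A match is a description of the letters and not evidence of a bound site.

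Members together took the largest share of RNA in mature enterocyte-like cells, at 51.1 ± 2.86 UMIs per 10000, followed by duodenal (41.4 ± 1.51), proximal (41.0 ± 1.26), mid villus (29.1 ± 0.986), ileal (22.9 ± 1.67) and early enterocyte-like cells (14.1 ± 0.354). The duodenal and proximal levels differed by less than their spread. Goblet (6.99 ± 0.472), crypt (4.83 ± 0.199) and Paneth-like cells (2.89 ± 1.14) lay below the T cell-like 12.8. In all enterocyte-like cells the Ces2 genes led with 10.3 UMIs per 10000, ahead of P450 family 4 (8.06), P450 families 1 to 3 (6.45), Ugt2 (3.83) and Ces1 (1.31). The other P450s (0.15) and Ugt1a (0.0194) were close to the limit of detection: of all 67 members, 39 reached 100 UMIs in the whole table and 37 reached them within the 8 classes compared, and only those 37 were tested. No Ugt1a gene was among them. A member could pass that filter through a single class in which it was high, so the counts describe these 37 and not all members.

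The 28 members under 100 UMIs were not tested. They held 3 to 80 UMIs each over 12653 cells and include liver P450s such as Cyp2e1 (17 UMIs), Cyp2c70 (10) and Cyp4a10 (10), the vitamin D enzymes Cyp24a1 and Cyp27b1 (3 each) and Ugt1a1, which conjugates bilirubin (56). At this depth such counts are at the limit of detection and give no order among classes. Ugt1a genes share their last exons, so 3' counts cannot tell them apart, and their low counts are not read as low expression.

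**Figure D1:**
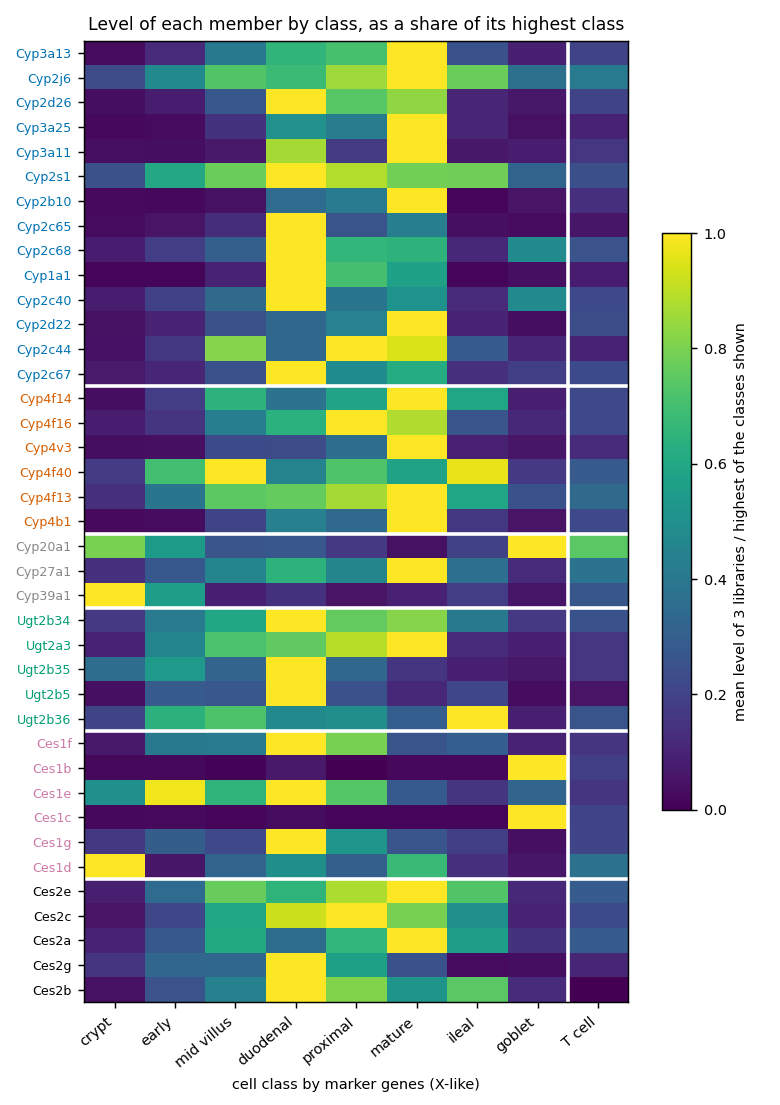
Mean level over the 3 libraries of each member with at least 100 UMIs (rows, coloured and divided by role), in 8 classes and in T cell-like cells (columns), as a share of the member's highest class shown. Most P450s peak in mature or duodenal enterocyte-like cells, Ces1b and Ces1c in goblet-like cells, and Cyp20a1, Cyp39a1 and Ces1d in crypt- or goblet-like cells.

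Ces2e, an esterase of the villus, was the most abundant member. Its level was 8.97, 9.70 and 9.49 in mature enterocyte-like cells, 6.91, 6.24 and 7.34 in ileal cells, 3.13, 3.25 and 3.49 in early cells and 0.737, 0.799 and 0.878 in crypt cells. Libraries of the same class stayed close together, and these 4 classes did not overlap. Ugt2b34, a glucuronosyltransferase, was the next most abundant, with 4.54, 4.71 and 4.74 in duodenal cells against 0.850, 0.706 and 0.766 in crypt cells. Cyp4f14, which oxidises leukotrienes and other fatty acids, reached 7.20, 4.84 and 5.35 in mature cells. Its AOS 0 library stood above the others there, and all 3 were above every early library, which lay at 0.998 to 1.11.

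Enterocyte-like cells as a whole differed from crypt-like cells in most tested members. The comparison took the mean of the mid villus, duodenal, proximal, mature and ileal classes against crypt. Of 37 members, 27 were higher in enterocytes, 2 were lower and 8 were not called, where 10.8% of the 10471 genes tested were called higher and 21.0% lower. A call was a difference of more than 2-fold at an adjusted p under 0.05 in limma over the sums of class and library. The median log2 difference was 2.13 for the members and -0.37 for all genes. All 13 tested P450s of families 1 to 3 and all 6 of family 4 were higher, as were 4 of 5 Ces2, 3 of 5 Ugt2 and 1 of 5 Ces1 genes.

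The highest log2 differences were those of Cyp4f14 (3.71 in enterocytes against 0.214 in crypt, log2 difference 3.98 ± 0.08 SE, adjusted p = 5.8e-21) and Cyp3a13, a drug- and steroid-oxidising P450 (2.39 against 0.135, 3.91 ± 0.12, adjusted p = 2.7e-17). Ces2c stood at 3.66 against 0.262 (3.71 ± 0.07, adjusted p = 3.1e-21), and Ces2e at 7.55 against 0.805 (3.20 ± 0.05, adjusted p = 4.0e-22). Each of these members was higher in enterocytes in all 3 libraries. The share of all genes above or below the T cell-like level is not given, so counts against that level only describe the members. In crypt-like cells 25 of the 39 members with enough UMIs lay below the T cell-like level and 13 could not be told from it. Ugt2b35 alone was above it, with 0.197, 0.216 and 0.235 in crypt cells against 0.0391, 0.143 and 0.107 in T cell-like cells, and it was not called between enterocytes and crypt (log2 difference -0.38 ± 0.19).

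A pair of P450s outside the drug families went the other way. Cyp20a1, an orphan P450 with no settled substrate, had 0.135, 0.15 and 0.131 in crypt cells and 0, 0.00807 and 0.0147 in mature enterocytes (log2 difference, enterocytes over crypt, -1.99 ± 0.29, adjusted p = 0.0045). Cyp39a1, an oxysterol hydroxylase, had 0.0531, 0.0566 and 0.0376 in crypt cells and 0.00547 on average in enterocytes (-2.003 ± 0.34, adjusted p = 0.013). Neither crypt level was distinguishable from the T cell-like level. Both calls were lost without the B + A 0 library (adjusted p = 0.051 for Cyp20a1 and 0.072 for Cyp39a1). Among the members called higher, Cyp2c40 (adjusted p = 0.13 without AOS 0 and 0.061 without B + A 0), Cyp2d22 (0.082 and 0.083) and Cyp2s1 (0.12 without B + A 10) also depended on single libraries.

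**Figure D2:**
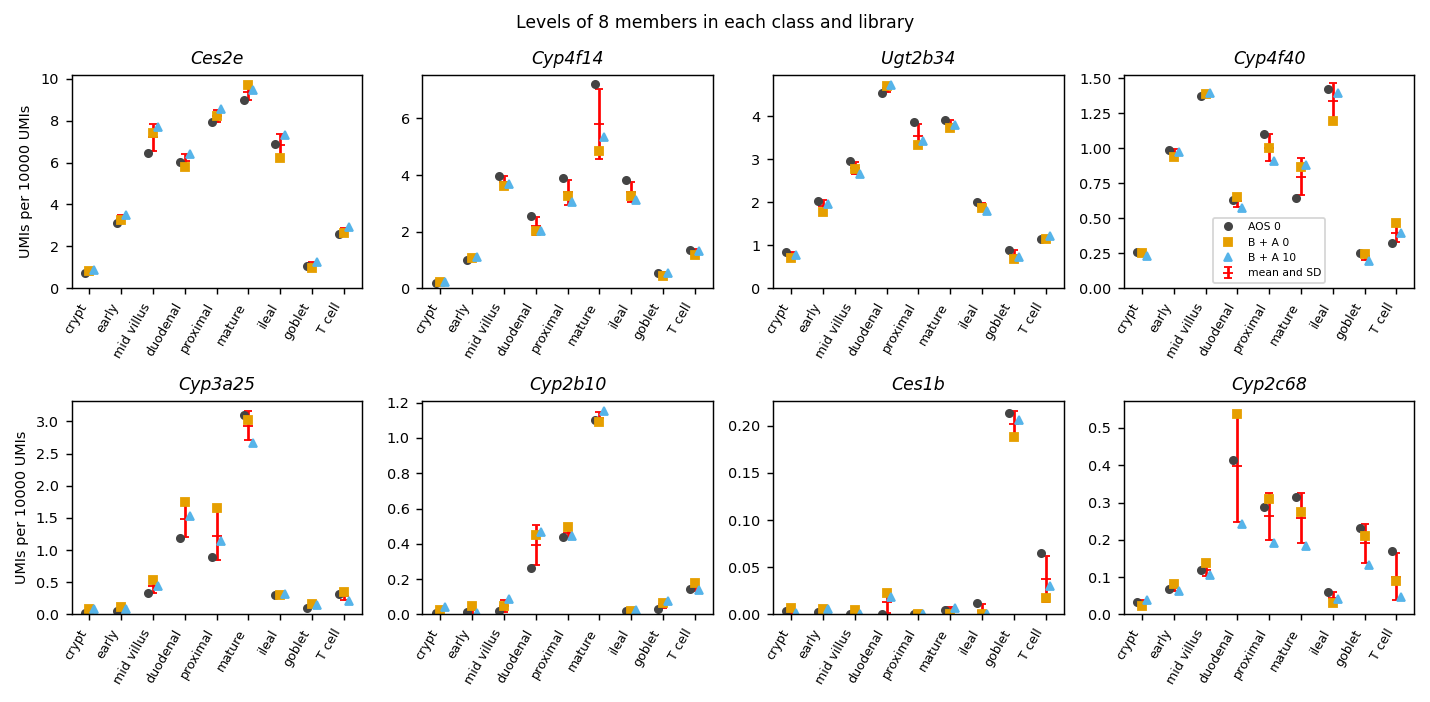
Level (UMIs per 10000 UMIs) of 8 members in 8 classes and in T cell-like cells, 1 point per library, with the mean and SD of the 3 in red. Ces2e, Cyp4f14, Cyp3a25 and Cyp2b10 are highest in mature enterocyte-like cells, Ugt2b34 and Cyp2c68 in duodenal cells, Cyp4f40 in mid villus and ileal cells and Ces1b in goblet-like cells.

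Most members higher in later than in early enterocyte-like cells were P450s. The later cells were the proximal and mature classes, while early cells were not assigned to a region. At resolution 1.5, a cluster of 365 early-like cells had the ileal marker Fabp6 among its 10 leading genes. Position on the villus and position along the intestine thus cannot be told apart in this comparison. Against the mean of proximal and mature enterocyte-like cells, 16 of 37 members were higher in the later cells and 1 lower, where 4.95% of all genes were called higher and 7.15% lower. The median log2 difference was 1.08 for the members and -0.27 for all genes. The 16 were 9 of 13 P450s of families 1 to 3, 4 of 6 of family 4 and 3 of 5 Ces2 genes. None of the 5 Ugt2 and none of the 5 Ces1 genes was called. A limma test against no difference, in place of 2-fold, called 25 members higher and 5 lower, where it called 19.8% of all genes higher and 37.2% lower.

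Cyp2b10, a classical target of CAR, had the highest fitted difference, with that of Cyp1a1 within its SE. It had 0.0121, 0.0468 and 0.0106 in early cells, 0.437, 0.495 and 0.446 in proximal cells and 1.10, 1.09 and 1.15 in mature cells (later over early, log2 difference 4.62 ± 0.30, adjusted p = 9.3e-11). Cyp1a1, the classical target of AHR, rose from 0.0108 to 0.520 (4.53 ± 0.30, adjusted p = 2.2e-10), and Cyp3a25, a drug-metabolising P450, from 0.0832 to 2.08 (4.40 ± 0.19, adjusted p = 5.4e-14). Early levels of these 3 members were below their T cell-like levels of 0.153, 0.0621 and 0.294, and so was that of Cyp4v3 below its own (0.591). Cyp4v3, a fatty acid hydroxylase, went from 0.195 in early to 4.93 ± 0.12 in mature cells (later over early, 3.90 ± 0.13). Its proximal level of 1.79 ± 0.13 lay between these.

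The other called P450s were Cyp4b1 (3.39), Cyp3a11 (3.37), Cyp2d26 (3.25), Cyp3a13 (2.78), Cyp4f16 (2.57), Cyp2c65 (2.57), Cyp2d22 (2.21), Cyp4f14 (2.05) and Cyp2c68 (1.70), all given as log2 differences of later over early cells. Esterases rose less, with Ces2c at 2.05, Ces2a at 1.52 and Ces2e at 1.41. All 16 were higher in 3 of 3 libraries. The calls of Cyp2d22 (adjusted p = 0.094 without AOS 0), Cyp2c68 (0.31 without AOS 0 and 0.068 without B + A 0) and Ces2a (0.18 without B + A 0 and 0.094 without B + A 10) rested on single libraries. Ugt2b34 reached only 1.92 in early against 3.68 in later cells (0.93 ± 0.06), close to 2-fold and not past it. Ces1f, the main Ces1 gene of enterocytes, had 2.10 ± 0.0240 in proximal and 0.683 ± 0.106 in mature cells, and its log2 difference of 0.16 ± 0.10 averages these.

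The drug-metabolising P450s did not peak in the same place. Cyp3a11, the classical target of PXR, had 2.34, 1.93 and 1.95 in mature cells, 1.33, 1.91 and 2.16 in duodenal cells and 0.173, 0.495 and 0.431 in proximal cells. Mature and duodenal levels overlapped, and the proximal level was not distinguishable from the T cell-like one (0.326, 0.374 and 0.290). Cyp2d26 had 2.80, 2.27 and 2.82 in duodenal cells, 1.69, 1.92 and 2.22 in proximal cells and 2.24, 1.99 and 2.36 in mature cells, all close to each other. Cyp3a25 had 1.20, 1.75 and 1.52 in duodenal cells and 3.10, 3.03 and 2.67 in mature cells, which did not overlap. Cyp2j6, an arachidonic acid epoxygenase, was flatter, from 0.501 ± 0.0376 in early to 1.05 ± 0.0592 in mature and 0.815 ± 0.0568 in ileal cells, and Cyp2s1 flatter still, at 0.239 to 0.396 in all 6 enterocyte classes. Neither was called between early and later cells or in ileal against proximal and mature cells.

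Cyp20a1 was the member called lower in later than in early cells, at 0.0181 against 0.0945 (log2 difference -2.08 ± 0.33, adjusted p = 0.015). The call was lost without B + A 0 (adjusted p = 0.21) and without B + A 10 (adjusted p = 0.074). Ugt2b35 went from 0.278, 0.316 and 0.382 in early cells to 0.0999, 0.105 and 0.0661 in mature cells, and its difference from the later classes together was not called (-1.21 ± 0.22). The groups did not overlap for this gene between early and mature cells.

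Along the length of the intestine the members were lower in ileal cells or not called. The ileal cluster scored second highest as early enterocyte, so region and maturity cannot be fully told apart in this comparison. Against proximal and mature enterocyte-like cells, 13 of 37 members were lower in ileal cells and 0 higher, where 2.40% of all genes were called lower and 1.36% higher. In a limma test against no difference, in place of 2-fold, 25 were lower and 2 higher, where 20% of all genes were lower and 13.0% higher. The median log2 difference was -0.95 for the members and -0.03 for all genes. The 13 were 9 P450s of families 1 to 3, 2 of family 4, Ugt2a3 and Ces2g.

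Cyp2b10 fell from 0.787 in the proximal and mature classes to 0.0204, 0.0181 and 0.0246 in ileal libraries (log2 difference -4.55 ± 0.30, adjusted p = 3.9e-10). Cyp1a1 fell from 0.520 to 0.0157 (-4.36 ± 0.30, adjusted p = 1.6e-09). Ces2g, an esterase of low abundance, had 0.334, 0.289 and 0.346 in proximal cells and 0.0122, 0.0302 and 0.00821 in ileal cells (-3.15 ± 0.24, adjusted p = 1.0e-07). Ugt2a3 had 0.790, 0.660 and 0.577 in proximal cells and 0.0896, 0.121 and 0.0574 in ileal cells (-2.90 ± 0.19, adjusted p = 8.8e-09). No ileal library of these genes reached the lowest proximal or mature library. None of these ileal levels stood above the T cell-like level.

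The remaining 9 were Cyp2d26 (-2.88), Cyp2c65 (-2.86), Cyp3a11 (-2.77), Cyp4v3 (-2.70), Cyp3a25 (-2.55), Cyp2c68 (-2.33), Cyp2d22 (-2.19), Cyp4f16 (-1.85) and Cyp3a13 (-1.73), as log2 differences of ileal over proximal and mature cells. The Cyp2d22 call was lost without AOS 0 (adjusted p = 0.11) and without B + A 10 (adjusted p = 0.53). With each cell placed by its own marker score, those of Cyp4f16 (-1.14) and Cyp3a13 (-1.52) were lost as well. Cyp3a13 alone of the 13 stayed above the T cell-like level in the ileum, with 1.26, 0.937 and 0.812 against 0.822, 0.766 and 0.839 in T cell-like cells, and the last library overlapped it. The most abundant members moved less along the length: Ces2e was 6.83 in ileal and 8.81 in proximal and mature cells (-0.37 ± 0.06), and Cyp4f14 was 3.41 and 4.59 (-0.37 ± 0.10), neither past 2-fold.

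By ratio to the mean of the other 7 classes, Ugt2b36 (2.39) and Cyp4f40 (1.78) led in ileal cells, and neither was called there. Ugt2b36, a glucuronosyltransferase, had 0.159, 0.163 and 0.197 in ileal cells and 0.0315, 0.0565 and 0.0661 in mature cells (ileal over proximal and mature, 1.33 ± 0.34). Cyp4f40, a family 4 P450, had 1.42, 1.19 and 1.40 in ileal and 0.641, 0.864 and 0.881 in mature cells (0.58 ± 0.10). Ileal and mature libraries did not overlap for either gene. Cyp4f40 was as high in mid villus cells, at 1.37, 1.38 and 1.39.

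Duodenal cells, the smallest enterocyte class, held their own leaders. Cyp2c65, known to oxidise arachidonic acid, had 1.13, 1.32 and 1.41 there, 7.23 times the mean of the other 7 classes compared, and its next level was 0.626, 0.476 and 0.558 in mature cells. Ugt2b5 had 0.935, 1.12 and 0.780, 5.78 times the mean of the others, against 0.302, 0.247 and 0.169 in proximal cells. Ces1f (2.59, 2.98 and 2.36), Ces2g (0.565, 0.471 and 0.669) and Ugt2b35 (0.413, 0.807 and 0.595) also peaked in duodenal cells. These ratios are descriptions and were not tested. With each cell placed by its own marker score, the duodenal levels of Cyp2c65 and Ugt2b5 were 0.761 and 0.591.

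**Figure D3:**
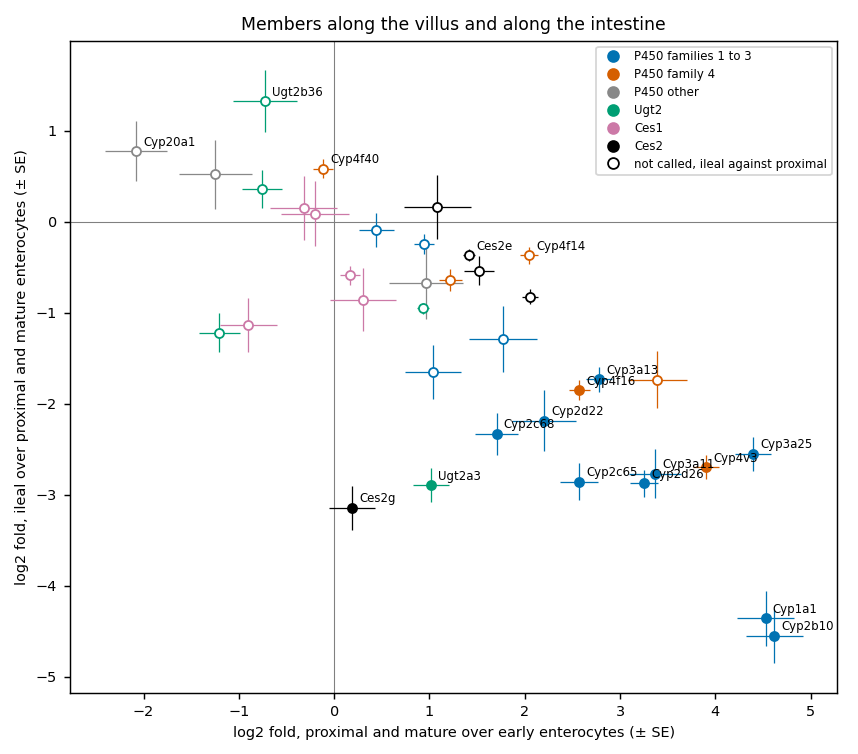
Log2 difference of proximal and mature over early enterocyte-like cells (x axis) and of ileal over proximal and mature cells (y axis) for the 37 tested members, with SE bars, coloured by role and filled where called in the ileal comparison. Cyp2b10 and Cyp1a1 lie at the lower right with differences beyond 4 on both axes, while Ugt2b36 is the highest on the y axis at 1.33. Both axes share the proximal and mature sums, so the slope of the cloud is not a result.

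Goblet-like cells were set apart by a pair of Ces1 genes. Against crypt-like cells 4 members were higher and 3 lower, where 4.06% of all genes were called higher and 14.6% lower, and the median log2 difference was 0.44 for the members and -0.62 for all genes. Against no difference 19 were higher and 4 lower, where 14.5% of all genes were higher and 51.9% lower. Ces1b had 0.213, 0.188 and 0.206 in goblet cells and 0.00372, 0.00726 and 0.00150 in crypt cells (3.93 ± 0.40, adjusted p = 1.8e-06). Ces1c had 0.178, 0.179 and 0.196 in goblet cells and 0.00279, 0.00436 and 0.00451 in crypt cells (3.81 ± 0.41, adjusted p = 4.3e-06). These fitted differences are on the log2(CPM + 1) scale, which understates the change of rare genes. Ces1b and Ces1c passed the UMI filter through goblet cells. Both were also named for their ratio there to the mean of the other classes compared (43.6 and 46.7). Their adjusted p-values are therefore not independent of that selection, and the levels by library only describe the pattern. In all enterocyte-like cells Ces1b and Ces1c stood at 0.00372 and 0.00380, from 11 and 10 UMIs. T cell-like cells held 8 UMIs of each, in the same numbers in every library, and Paneth-like cells 0.0584 and 0.0450. The neighbouring Ces1f and Ces1e did not share the pattern, at 0.263 and 0.0299 in goblet against 2.64 and 0.0914 in duodenal cells.

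The other goblet members were Cyp2c68, at 0.231, 0.211 and 0.132 against 0.0316 in crypt cells (2.26 ± 0.27, adjusted p = 0.00041), and Cyp2c40, at 0.119, 0.138 and 0.0713 against 0.0179 (2.06 ± 0.34, adjusted p = 0.015). Their promoters and 3' ends are among the closest matches given above, so their counts may not be separate. The Cyp2c40 call was lost without AOS 0 (adjusted p = 0.14) and without B + A 0 (0.15). Above the T cell-like level in goblet cells lay these 4 members, with 20 below it and 15 not distinguishable. The share of all genes is not given, so these counts only describe the members. Lower in goblet than in crypt cells were Ugt2b35 (0.0378 against 0.216, -2.27 ± 0.25, adjusted p = 0.00018), Cyp39a1 (-2.20 ± 0.44, adjusted p = 0.034) and Ces2g (-1.73 ± 0.28, adjusted p = 0.041). Cyp39a1 lost its call without B + A 0 (0.12) and without B + A 10 (0.078), and Ces2g without AOS 0 (0.49) and without B + A 0 (0.090).

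Genes that serve or regulate the members were read from 4 lists. Of all genes, 10.8% were called higher and 21.0% lower in enterocyte-like against crypt-like cells. The shares higher and lower were 4.95% and 7.15% in later against early cells. They were 1.36% and 2.40% in ileal cells, and 4.06% and 14.6% in goblet against crypt cells. Of 13 tested receptors and regulators, 4 were higher in enterocyte-like than in crypt-like cells (Hnf4g, Nr1i3, Nr0b2 and Rxra) and 0 lower. Nr1i3 encodes CAR and Hnf4g a nuclear factor of enterocytes. None of the 13 was called between early and later cells. In ileal cells Nr1i3 (0.0564 against 0.432, log2 difference -2.75 ± 0.23, adjusted p = 1.5e-06) and Nfe2l2, which encodes the oxidant sensor NRF2 (-1.68 ± 0.08, adjusted p = 4.0e-07), were lower, and Nr1h4, the bile acid receptor FXR, was higher (1.30 against 0.298, 2.09 ± 0.16, adjusted p = 1.1e-05). Nr1i2 (PXR) was not called in any of these (0.438 in ileal against 0.636 in proximal and mature cells), nor was Ahr (0.0278 against 0.0931). Vdr was the 1 receptor called between goblet and crypt cells, lower in goblet (-1.57 ± 0.10).

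Of 9 electron and cofactor suppliers 6 were higher in enterocyte-like than in crypt-like cells (Cyb5b, Cyb5r3, Pgrmc1, Por, Slc35d1 and Ugdh), 0 lower and 3 not called, against 10.8% of all genes higher, and 4 of 9 were higher in later than early cells. Por, the P450 reductase, had 0.906 in enterocytes and 0.265 in crypt cells, and Ugdh, which makes the glucuronic acid donor, 4.27 and 0.753. In ileal cells Cyb5r3 (-2.77 ± 0.06), Pgrmc2 (-2.35 ± 0.11) and Por (-1.75 ± 0.14) were lower and 0 higher. Of 15 other phase 2 enzymes 10 were higher in enterocytes than in crypt cells, 8 in later than early cells and 0 in ileal cells, where 4 were lower (Ephx2, Papss2, Aldh1a1 and Fmo5). In goblet cells Papss2, also used here as a duodenal marker, and Fmo5 were higher than in crypt cells and Nqo1 lower. Of 5 export pumps, Abcc2, Abcc3 and Abcg2 were higher in enterocytes and Abcc1 lower, and Abcb1a, the P-glycoprotein gene, was the 1 pump called in ileal cells, where it was higher (1.11 against 0.364, 1.57 ± 0.14, adjusted p = 0.0081). These lists were described by their counts only. Unlike the members, their genes were not left out of the clustering, so their calls may not be independent of the classes. Papss2 was both a duodenal marker and a leading gene of the proximal cluster.

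Between treatments there was 1 library a group, so values are ratios of levels in all enterocyte-like cells with exact 95% intervals that cover counting error only, and no p can be given. A member was past the fold when its ratio exceeded 1.5, or fell below its inverse, and the interval left out 1. Of 33 members with enough UMIs, 1 was higher and 0 lower in B + A 0 over AOS 0 (2.30% and 2.01% of 8637 genes), 2 higher and 0 lower in B + A 10 over B + A 0 (2.0% and 1.13%), and 1 higher and 0 lower in B + A 10 over AOS 0 (4.17% and 3.31%). Median ratios of the members were 1.02, 1.09 and 1.05, against 0.960, 1.03 and 0.982 for all genes.

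Cyp1a1 was past the fold in all 3 comparisons. It gave 81, 123 and 388 UMIs in enterocyte-like cells, or 0.0630, 0.154 and 0.456 per 10000. The ratio was 2.44 (1.83 to 3.28) for B + A 0 over AOS 0, 2.96 (2.41 to 3.66) for B + A 10 over B + A 0 and 7.24 (5.69 to 9.32) for B + A 10 over AOS 0. By class, its level was 0.161, 0.495 and 1.07 in proximal cells, 0.152, 0.363 and 0.881 in mature cells and 0.522, 0.359 and 1.56 in duodenal cells. The B + A 10 library was highest in each of these classes. B + A 10 over B + A 0 was above 1, interval included, in the 4 classes with enough UMIs (2.16 to 4.35). B + A 10 over AOS 0 was 2.99 in duodenal, 6.66 in proximal and 5.78 in mature cells, and 16.9 (5.32 to 85.7) in mid villus cells, where 35 UMIs stood against 3. B + A 0 over AOS 0 was above 1 in proximal (3.08) and mature cells (2.38) and 0.688 (0.342 to 1.35) in duodenal cells, so that step was not seen there. T cell-like cells held 0.0261, 0.0535 and 0.107 in the same order.

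**Figure D4:**
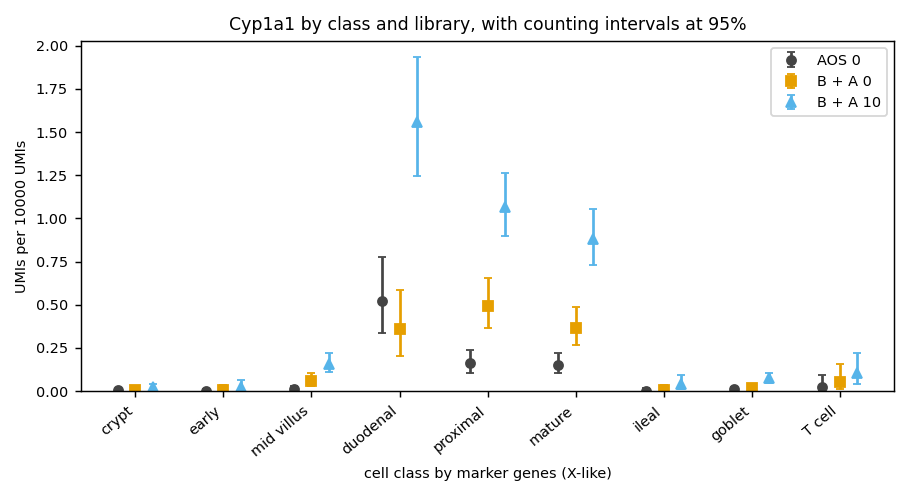
Level of Cyp1a1 (UMIs per 10000 UMIs) by class and library, with exact 95% intervals for counting error. The B + A 10 library is highest in duodenal (1.56), proximal (1.07) and mature cells (0.881), and every library is near 0 in crypt, early, ileal and goblet-like cells.

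Tiparp and Nqo1, both known to answer to AHR and chosen after their values were seen, stayed inside the fold. Tiparp gave 0.834 (0.699 to 0.993) in B + A 0 over AOS 0 and 1.25 (1.04 to 1.52) in B + A 10 over B + A 0, and Nqo1 0.935 (0.825 to 1.06) and 1.13 (0.986 to 1.29). Ahr itself gave 0.749 (0.518 to 1.07) and 1.44 (0.983 to 2.13), from 47 to 101 UMIs a library. None of the 13 receptors, 9 suppliers or 4 pumps was past the fold in any comparison. Of 15 other phase 2 enzymes, Fmo5 was higher (1.68, 1.53 to 1.84) and Sult1b1 lower (0.664, 0.636 to 0.693) in B + A 10 over AOS 0.

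Cyp4f16, of the family 4 enzymes that hydroxylate fatty acids, was the other member past the fold, in B + A 10 over B + A 0 alone (1.74, 1.61 to 1.89). Its level in enterocyte-like cells was 1.44, 1.14 and 1.99, so that B + A 0 was lowest (0.795 of AOS 0, 0.734 to 0.861) and B + A 10 highest. The ratio of B + A 10 to B + A 0 was above 1 in 6 of 6 enterocyte classes, from 1.21 in early to 2.14 in ileal cells, and its interval left out 1 in 5 of them. Proximal levels were 2.96, 2.32 and 4.02. T cell-like levels were 0.483, 0.535 and 1.04 in the same libraries.

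The rest stayed inside the fold. Among members with at least 300 UMIs in enterocyte-like cells, the next highest ratio of B + A 0 over AOS 0 was that of Cyp3a25 (1.30, 1.18 to 1.42), and the lowest were Cyp4b1 (0.724, 0.555 to 0.939) and Cyp4f13 (0.746, 0.660 to 0.841). In B + A 10 over B + A 0 the lowest were Ugt2b36 (0.719, 0.525 to 0.982) and Cyp2c68 (0.722, 0.553 to 0.941). In B + A 10 over AOS 0 Cyp2d26 reached 1.41 (1.29 to 1.53), while Ugt2b36 gave 0.732 (0.548 to 0.970) and Ugt2b5 0.738 (0.615 to 0.883). The most abundant members stayed close to 1: B + A 10 over B + A 0 was 1.06 (1.02 to 1.10) for Ces2e, 1.04 (0.985 to 1.11) for Ugt2b34, 1.01 (0.959 to 1.07) for Cyp4f14 and 0.976 (0.921 to 1.03) for Ces2c. These intervals cover counting error only. They leave out a 1.5-fold difference in either direction between these 2 libraries, which says nothing on the spread between animals or treatments.

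**Figure D5:**
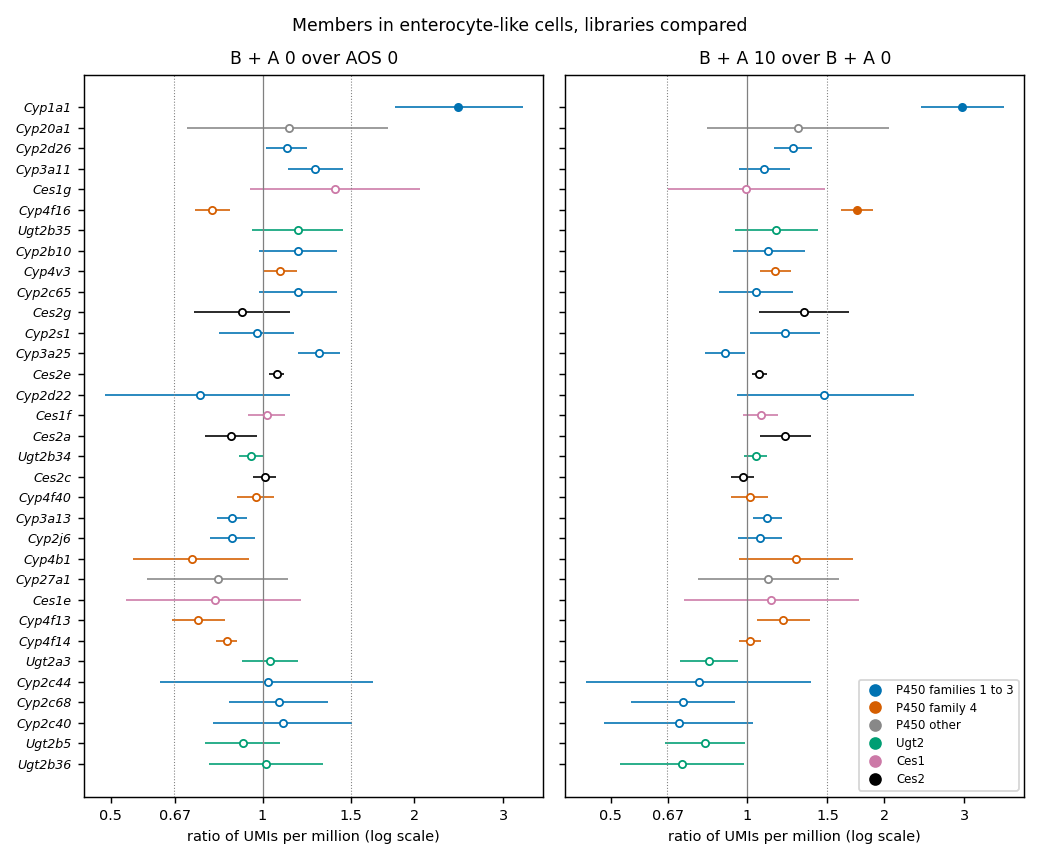
Ratio of levels in enterocyte-like cells for the 33 members with enough UMIs (rows, ordered by B + A 10 over AOS 0), with exact 95% intervals on a log axis and filled where past the 1.5-fold lines. Cyp1a1 is filled in both panels at 2.44 and 2.96 and Cyp4f16 in the right panel at 1.74.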

How the data were processed

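Per the labels and the study's methods, single-cell libraries of the small intestine of 3 groups, 1 library each, were aligned to mm10 with Cell Ranger 2.2.0, and cells with at least 200 genes and genes in at least 3 cells were kept. The authors deposited 1 table of natural log values, ln of 1 plus UMIs per 10000 UMIs of the cell. The step of that scale in each cell gave back UMIs, and 100.0% of 24333763 values were whole within 0.01. The design had assumed UMI sums, and these recovered UMIs were summed, but as the deposited unit is not counts, the sums were tested by limma 3.58.1 on log2(CPM + 1), not by a count model.

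Cells were clustered in Seurat 5.3.0 (R 4.3.3) after joining the libraries, on 2000 variable genes without the members, 20 dimensions, 20 neighbours and resolution 0.8. Clusters were named from markers (119 of 139 were in the table), by a scoring rule set after the clusters were seen. B + A 10 holds 5352 cells, more than the 5000 the methods name. Doublets were kept, since an automatic threshold marked only 15 cells (0.119%), and the highest 5% of scores were left out in an alternative. UMIs were summed per class and library (8 classes, 24 sums, at least 20 cells each), genes needed 100 UMIs, and limma's treat with a mean-variance trend and the library as a term tested for more than 2-fold, two-sided, with Benjamini-Hochberg adjustment at 0.05 over the 10471 genes tested. The 14 residual degrees of freedom come from the 24 sums of 3 libraries that differ in treatment, with the library as a term. The p-values thus measure how evenly a class difference recurs over these libraries, not a spread between animals. What varies between them may be technical. On simulated sums, limma recovered 95.5% of 200 genes changed 4-fold and called 0% of the unchanged ones, in a simulated ileal comparison over 10472 genes. The changed genes were drawn from those with at least 2000 UMIs, all classes otherwise shared 1 profile, and the noise was set by hand. Recovery of members with fewer UMIs was therefore not measured. Ratios between libraries carry exact binomial 95% intervals that cover counting error only.

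The members and gene lists were chosen with earlier results of these data known. Members were named as the 4 with most UMIs in each role group, the 2 with the highest ratio to the other classes in each class (at least 300 UMIs), and the 2 highest and 2 lowest ratios in each library comparison (at least 300 UMIs). All other members named were chosen after their values were seen. Alternatives were another resolution (0.4 or 1.5), unjoined libraries, members kept in the clustering, classes by each cell's own marker score, doublets left out, a pseudocount of 5 CPM, at least 20 UMIs, no library term, a test against no difference, scaling without ribosomal protein genes, per-cell means, all cells, class weights of AOS 0, and each library left out. Positions came from GENCODE vM21 and promoters from RefSeq. Figures were drawn in matplotlib 3.10.9, with Python 3.11.15, numpy 2.4.6, scipy 1.17.1 and pandas 2.3.3 for the rest.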

Additional observations from a re-analysis of the deposited data

Results flagged for a closer look

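Cyp3a11 was not shifted in the same direction in every enterocyte class between libraries, a difference that was not tested because each group is 1 library. In B + A 0 over AOS 0 its level ratio was 2.99 (1.32 to 7.05) in early, 6.01 (3.03 to 13.0) in mid villus, 1.44 (1.02 to 2.03) in duodenal, 2.85 (1.75 to 4.76) in proximal and 2.28 (1.08 to 4.998) in ileal cells, but 0.823 (0.7 to 0.965) in mature cells, where most of its UMIs lie. In B + A 10 over AOS 0 the ratios were 3.19, 4.996, 1.63, 2.48 and 4.18 in the same order, against 0.830 (0.710 to 0.968) in mature cells. Cyp3a11 also stood at 0.0242, 0.105 and 0.126 in crypt, 0.0787, 0.192 and 0.206 in goblet and 0.0330, 0.148 and 0.167 in Paneth-like cells, all below its T cell-like levels of 0.326, 0.374 and 0.290. The T cell markers outside T cells were likewise higher in both busulfan libraries, from 0.755 in crypt-like and 0.741 in mature cells of AOS 0 to 2.44 and 3.18 in B + A 0. The summed mature enterocyte markers (8 of 8) were also higher in both busulfan libraries in crypt (1.43, 3.24 and 3.90 UMIs per 10000), early (2.51, 4.57 and 4.87), mid villus (8.89, 13.8 and 16.2), proximal (49.6, 56.2 and 59.99) and ileal cells (4.83, 6.29 and 7.68), and lower in mature cells (104, 82.2 and 88.5). In duodenal cells, where the Cyp3a11 ratio was above 1, they were lower (58.1, 43.6 and 50.1). The part of either marker list in the ratios was not tested.

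Ces2a differed in the same way in B + A 10 over AOS 0, with a ratio of 1.64 (1.23 to 2.19) in proximal and 0.790 (0.629 to 0.988) in mature cells. This difference was not tested either.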

How the results depend on the processing

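Of 66 called differences of members between classes, recomputed under the alternatives that gave classes to compare and kept the gene in the test, 855 values kept the call and its direction and 60 lost the call, in 17 differences; none reversed. The 44 recomputed ratios of Cyp1a1 and Cyp4f16 kept their side of the fold (Cyp1a1 in B + A 10 over B + A 0 from 2.55 to 3.43, Cyp4f16 from 1.66 to 1.93). Of the levels, 183 moved by less than 1 SD and 43 by more. No paired analysis was possible because each group is 1 library, and the library is a term of the class comparisons.

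A pseudocount of 5 CPM took the members lower in enterocytes than in crypt from 2 to 0, those lower in later than early cells from 1 to 0 and those lower in goblet than crypt cells from 3 to 1. The last was also 1 with unjoined libraries, with each cell's own marker score and with members kept in the clustering, and own scores took those lower in later cells to 0. Resolution 0.4 made 7 members higher in goblet cells in place of 4, and it found no proximal class, while unjoined libraries found no mature class. A test against no difference, less strict by construction, called 25 members higher and 5 lower in later cells, 2 higher and 25 lower in ileal cells and 19 higher in goblet cells. Leaving out 1 library gave 23 to 24 members higher and 0 to 2 lower in enterocytes, 14 to 15 higher and 0 to 1 lower in later cells, 12 to 13 lower in ileal cells, and 3 to 4 higher and 1 to 2 lower in goblet cells. Cyp4f16 and Cyp3a13 were not called in the ileum with own scores (-1.14, adjusted p = 1.0, and -1.52, adjusted p = 0.20, in limma). Between libraries, members lower in B + A 0 than AOS 0 went from 0 to 1 with at least 20 UMIs, with per-cell means and with all cells, and to 2 with class weights of AOS 0. Those lower in B + A 10 than B + A 0 went from 0 to 1 with at least 20 UMIs and with all cells. In B + A 10 over AOS 0 members higher went from 1 to 2 at resolution 1.5, with class weights and with all cells, and members lower from 0 to 1 with all cells. Beyond these constructions the cause was not tested. The share of all genes called is given only for the main setting and the test against no difference. A moved count of members thus cannot be told from a change in the call rate over all genes. Scaling without ribosomal protein genes moved the median log2 difference of all genes from -0.37 to -0.69 in enterocytes against crypt, from -0.27 to -0.47 in later against early and from -0.62 to -0.90 in goblet against crypt cells.

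The depth limits rare members: with 3505 median UMIs in B + A 10, members under 100 UMIs had no class order.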

Other observations

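Enteroendocrine-like cells, 154 in all and not among the 8 classes compared, held 4 members above the T cell-like level. Cyp4b1, a P450 known to oxidise furans and fatty acids, had 0.439, 0.129 and 0.724 UMIs per 10000 there in the control, busulfan and busulfan plus AOS library (37 UMIs), as high as in mature enterocyte-like cells (0.562, 0.331 and 0.389). Cyp2c68 had 0.671, 0.214 and 0.213 (36 UMIs), Cyp2c40 0.336, 0.0857 and 0.0852 (17 UMIs) and Cyp39a1 0.181, 0.0428 and 0.0426 (9 UMIs). In these 3 the control library was the highest, but the counts are too few to read a pattern between libraries. Cyp2c68 and Cyp2c40 are not separate observations either, since 62.6% of the 3' words of Cyp2c68 are shared with Cyp2c40. No Paneth-like level stood above the T cell-like one, with 26 of 39 members below it and 13 not distinguishable. The share of all genes above or below that level is not given for either class.

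The genes whose level over the 24 sums followed the most abundant members most closely, by Pearson's r of log2 values and as a description with no p, were Erich4 (0.994) for Ces2e, Enpep (0.991) for Cyp4f14, Mogat2 (0.991) for Ces2c, Fam234a (0.988) for Ugt2b34 and Apob (0.987) for Cyp3a13. The sums share libraries and classes, and nothing about shared control follows from these values.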
